A study of Mus with 6 samples.

Results

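Sirtuins are a family of 7 mammalian enzymes, encoded by Sirt1 to Sirt7, and all 7 were measured in the hippocampus of mice with and without forced swim stress (FSS). The members were taken by gene symbol, as rows of the deposited expression table that carry exactly 1 symbol, and each sirtuin had 1 such row, so that the family makes up 7 of 19938 genes. Sirtuins use NAD+ to remove acetyl and other acyl groups from proteins and release nicotinamide in the reaction, which ties their activity to the NAD+ supply of the cell. Sirt1, Sirt6 and Sirt7 act mainly in the nucleus, Sirt2 mainly in the cytosol, and Sirt3, Sirt4 and Sirt5 in mitochondria. In the brain, Sirt1 has been studied in memory, circadian timing and stress-related behavior, and Sirt2 is known as a gene of myelinating oligodendrocytes.

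Hippocampal RNA of 3 control and 3 FSS mice was hybridised to Affymetrix Mouse Gene ST arrays, 1 mouse per array. All were C57BL/6JJmsSlc mice with a labelled age of 10 to 11 weeks, and the study used males. FSS mice swam for 11 min daily on 5 days in a cylinder that they could not leave, whereas control mice had no swim, and no transgene or drug is named for either group. The study's schedule places a tail suspension test between the last swim and the collection of tissue, and its methods state that the FSS mice shown were drawn at random from a larger number on arrays, of which the rest were not analysed here. The deposited values are log2 levels from robust multi-array averaging (RMA), so 1 unit is a doubling. A difference is always the mean of FSS mice minus the mean of control mice on this scale. RNA came from the whole dissected hippocampus, where fewer cells of a type and less RNA per cell cannot be told apart.

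Array medians lay between 7.32 and 7.35. All 5 markers of dentate granule cells and all 5 of pyramidal cells lay above the 95th percentile (6.21) of 1210 rows of olfactory and vomeronasal receptor genes, which the hippocampus hardly uses and which show here what a row reads without its transcript. The marker lists of other cell types are given by the range of their mean level. The mean level of 6 astrocytic markers was 10.44 to 10.53 in control mice and 10.58 to 10.63 in FSS mice, with 3 of the 6 (Aqp4, Gfap and Gja1) higher at an unadjusted p under 0.05 from limma. That of 6 meningeal markers was 8.17 to 8.21 in control mice and 8.28 to 8.45 in FSS mice, with 1 of the 6 (Lum) higher, and that of 5 granule cell markers was 9.61 to 9.78 and 9.78 to 9.82, with 1 of the 5 (Prox1) higher. Microglial markers (1 of 6 higher) spanned 8.24 to 8.41 and 8.40 to 8.49, and choroid plexus markers (1 of 6 higher, Ttr) spanned 6.92 to 7.31 and 7.20 to 7.37. Of these 6 choroid plexus markers, 3 had a difference above 0 and 3 below, with a median of -0.0024 and a highest value of 0.95, for Ttr. None of the pyramidal, oligodendrocyte and endothelial markers passed that threshold. Over all rows, 2.49% were higher at the same threshold. No marker passed 0.05 after Benjamini-Hochberg adjustment over all rows, with a lowest limma adjusted p of 0.943. The part of these cell types in the sirtuin values was not tested.

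No sirtuin passed an unadjusted p of 0.05 between FSS and control mice in limma, a linear model for each row whose variance estimate borrows from the other rows. Over all 21789 rows tested, 5.14% passed this threshold, 2.49% with FSS higher and 2.66% with FSS lower. The thresholds of the study, a difference over 0.5 in size with an unadjusted p under 0.05, were passed by 0.0688% of rows and by 0 sirtuins. After Benjamini-Hochberg adjustment no row passed 0.05, and the adjusted p of the 7 sirtuins ran from 0.943 to 0.994. The differences of the sirtuins ran from -0.15 for Sirt4 to 0.063 for Sirt5, 4 above 0 and 3 below. Their median was 0.0068, beside 0.0049 over all rows, and the median size of their differences was 0.038, beside 0.047 over all rows. The 95% interval of the difference lay between -0.5 and 0.5 for each of the 7 genes. It reached at most 0.16 to either side of the estimate, for Sirt5, and at least 0.10, for Sirt3. An estimate smaller in size than this reach does not pass the unadjusted threshold. A true difference of that size or larger can also be missed with 3 mice in a group. All 7 lay well above the receptor genes, since at least 99.7% of the receptor rows had a lower mean than any sirtuin.

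**Figure D1:**
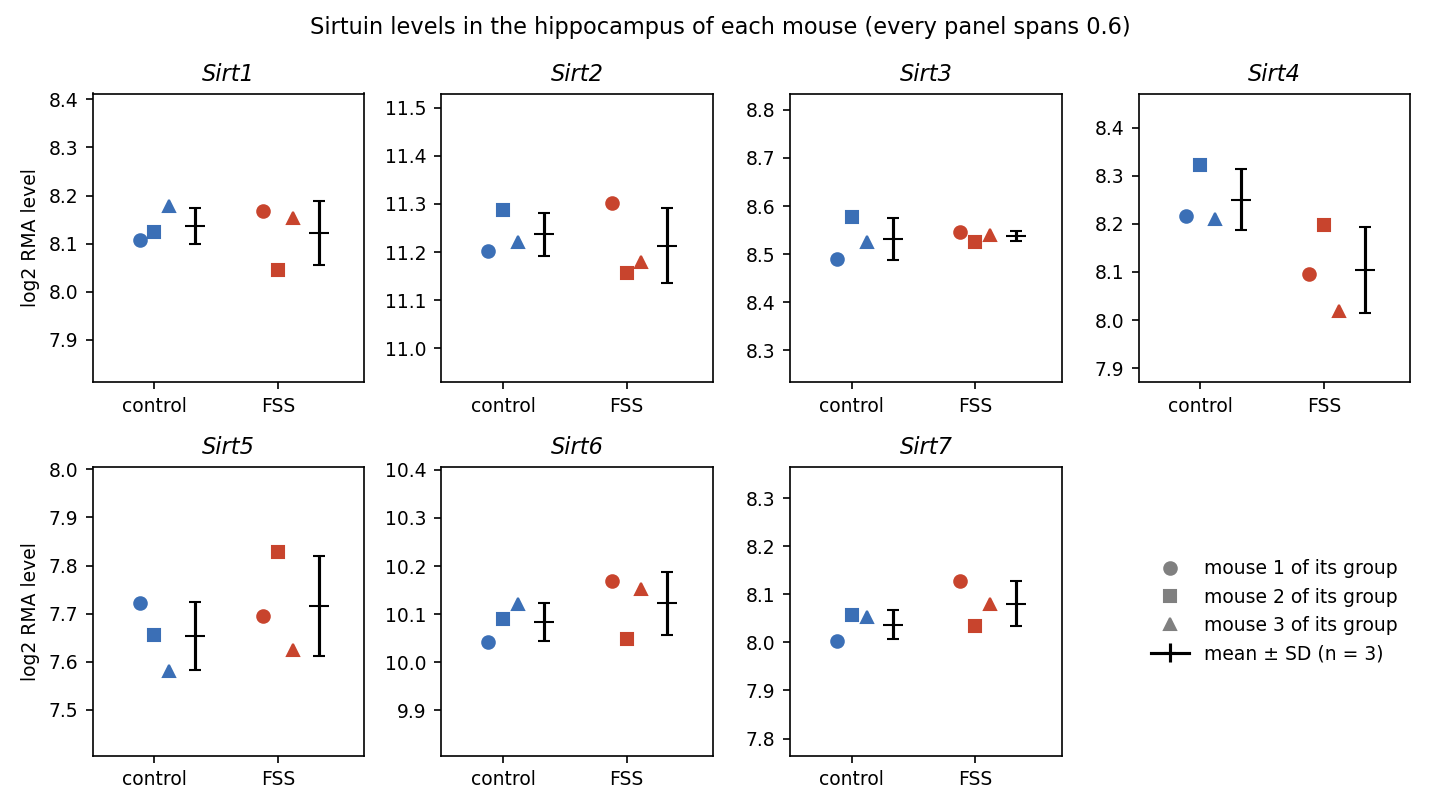
Log2 RMA level (y axis, each panel spanning 0.6) of the 7 sirtuins in control and FSS mice (x axis); symbols are single mice and black bars the mean ± SD of 3 mice. The groups overlap for every gene but Sirt4, whose FSS mice lie at 8.02 to 8.20 and whose control mice lie at 8.21 to 8.32.

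Among the nuclear sirtuins, Sirt1 is the best known, a deacetylase of histones and of transcription regulators such as the FoxO proteins and PGC-1α. Its level was 8.11, 8.12 and 8.18 in the 3 control mice and 8.17, 8.04 and 8.15 in the 3 FSS mice. FSS mouse 2 had the lowest level of all 6 and control mouse 3 the highest, so that the groups overlapped. The means were 8.14 ± 0.038 (SD, n = 3) in control mice and 8.12 ± 0.067 (SD, n = 3) in FSS mice, a difference of -0.014 (95% interval -0.14 to 0.11, limma adjusted p = 0.992), which is 0.910-fold to 1.08-fold as a ratio. The sign of this difference was not stable. It turned to 0.024 without FSS mouse 2 and to 0.0070 without control mouse 3, and ran down to -0.038 without another mouse.

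Sirt6 acts on chromatin and is known for roles in DNA repair and in the control of glycolytic genes. Levels were 10.04, 10.09 and 10.12 in control mice and 10.17, 10.05 and 10.15 in FSS mice, where FSS mice 1 and 3 were the highest and FSS mouse 2 lay with the control mice. The difference was 0.038 (95% interval -0.082 to 0.16, limma adjusted p = 0.973). Sirt7, a sirtuin of the nucleolus linked to the transcription of ribosomal RNA genes, had levels of 8.00, 8.06 and 8.05 in control mice and 8.13, 8.03 and 8.08 in FSS mice. FSS mice 1 and 3 were again the highest and FSS mouse 2 again lay within the control range. The difference of Sirt7 was 0.043 (95% interval -0.064 to 0.15, limma adjusted p = 0.971). For Sirt6 and Sirt7 the difference stayed above 0 without any 1 mouse, with ranges of 0.016 to 0.076 and of 0.020 to 0.067.

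Sirt2, which removes acetyl groups from tubulin, had levels of 11.20, 11.29 and 11.22 in control mice and 11.30, 11.16 and 11.18 in FSS mice. FSS mouse 1 was the highest of all and FSS mice 2 and 3 the lowest, so that the control mice lay between the FSS mice. The means were 11.24 ± 0.045 and 11.21 ± 0.078 (SD, n = 3 each), and the difference was -0.023 (95% interval -0.15 to 0.11, limma adjusted p = 0.984). It was 0.0021 without control mouse 2, 0.0044 without FSS mouse 2 and -0.068 at its lowest, without FSS mouse 1.

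Because Sirt2 is a gene of oligodendrocytes, its level was set against the mean of 11 oligodendrocyte markers, among them Mbp, Mog, Mag and Cnp. This mean was 10.43, 10.38 and 10.31 in control mice and 10.56, 10.17 and 10.53 in FSS mice, so FSS mice 1 and 3 were above and FSS mouse 2 was below all control mice, and 0 of the 11 markers passed an unadjusted p under 0.05 between the groups. FSS mouse 2, with the lowest marker mean, also had the lowest Sirt2, and FSS mouse 1, with the highest, had the highest Sirt2. FSS mouse 3 did not follow this order, with a high marker mean and a low Sirt2. Over the 6 mice, Pearson's r was 0.48 (exact permutation p = 0.332, adjusted 0.418) and Spearman's rho was 0.49 (exact permutation p = 0.356, adjusted 0.658), with p adjusted over the same relation of the 7 sirtuins. The r of Sirt2 was not the highest of the 7, since it was 0.68 for Sirt6, 0.66 for Sirt1 and 0.59 for Sirt7, and it was 0.15 for Sirt3, -0.46 for Sirt5 and -0.56 for Sirt4. None of the 7 relations passed, with adjusted exact permutation p from 0.418 to 0.79 for r and from 0.658 to 0.803 for rho. Without FSS mice 1 and 2, which lay farthest from the median of the marker mean, the r of Sirt2 was -0.57 over 4 mice. The positive value thus depends on those 2 mice together. Without 1 mouse at a time it stayed positive, from 0.075 without FSS mouse 2 to 0.79 without FSS mouse 3, and did not pass.

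**Figure D2:**
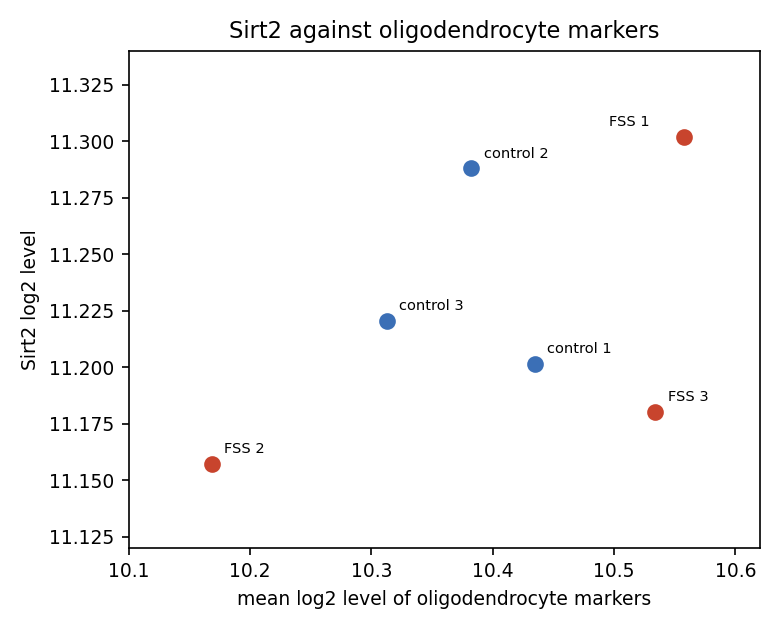
Sirt2 log2 level (y axis) against the mean log2 level of 11 oligodendrocyte markers (x axis); each point is a mouse, control in blue and FSS in red. FSS mouse 2 lies lowest on both axes (10.17 and 11.16) and FSS mouse 1 highest (10.56 and 11.30), with FSS mouse 3 away from that order.

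The mitochondrial sirtuins showed both the smallest and the largest difference of the family. Sirt3, the main deacetylase of mitochondria, had levels of 8.49, 8.58 and 8.53 in control mice and 8.55, 8.53 and 8.54 in FSS mice. The 3 FSS mice lay inside the control range and close together, with an SD of 0.011 against 0.044 in control mice. The difference was 0.0068 (95% interval -0.095 to 0.11, limma adjusted p = 0.994), and it was -0.014 without control mouse 1.

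Sirt4 modifies and inhibits glutamate dehydrogenase and removes lipoyl and related acyl groups from metabolic enzymes. Its level was 8.22, 8.32 and 8.21 in control mice and 8.10, 8.20 and 8.02 in FSS mice. Every FSS mouse was lower than every control mouse, although the lowest control mouse was only 0.014 above the highest FSS mouse. Among all rows, 10.3% showed no overlap between the groups, 4.25% with FSS lower and 6.02% with FSS higher. The means were 8.25 ± 0.064 and 8.10 ± 0.089 (SD, n = 3 each), a difference of -0.15 or 0.904-fold (95% interval -0.29 to 8.59e-05). The unadjusted limma p was 0.0501 and the adjusted p was 0.943, while the exact two-sided permutation test over the 6 mice gave p = 0.1, the smallest that 3 against 3 allow. The size of the Sirt4 difference exceeded that of 90.3% of all rows. Sirt4 therefore sat at the edge of the unadjusted threshold, and 6 of 16 alternatives placed it below. Without FSS mouse 2 the difference was -0.19 and passed. It did not pass without any of the other 5 mice, with values from -0.17 without control mouse 3 to -0.10 without FSS mouse 3. The sign was negative in all 16 alternatives, but many of these could not have turned it. Groups that do not overlap keep their sign when a mouse is left out, and other variance models leave the difference unchanged. Astrocytic, meningeal and granule cell marker means also had no overlap between the groups, in the opposite direction. For granule cells the gap was very narrow, with a highest control mean of 9.778 and a lowest FSS mean of 9.780. The part of these cell types in the Sirt4 difference was not tested.

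Sirt5 removes succinyl, malonyl and glutaryl groups from mitochondrial proteins. Levels were 7.72, 7.66 and 7.58 in control mice and 7.69, 7.83 and 7.62 in FSS mice. FSS mouse 2 was the highest of all, and the other FSS mice lay inside the control range. The difference of 0.063 (95% interval -0.097 to 0.22, limma adjusted p = 0.971) was the highest value of the family, and without FSS mouse 2 it was 0.0064.

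**Figure D3:**
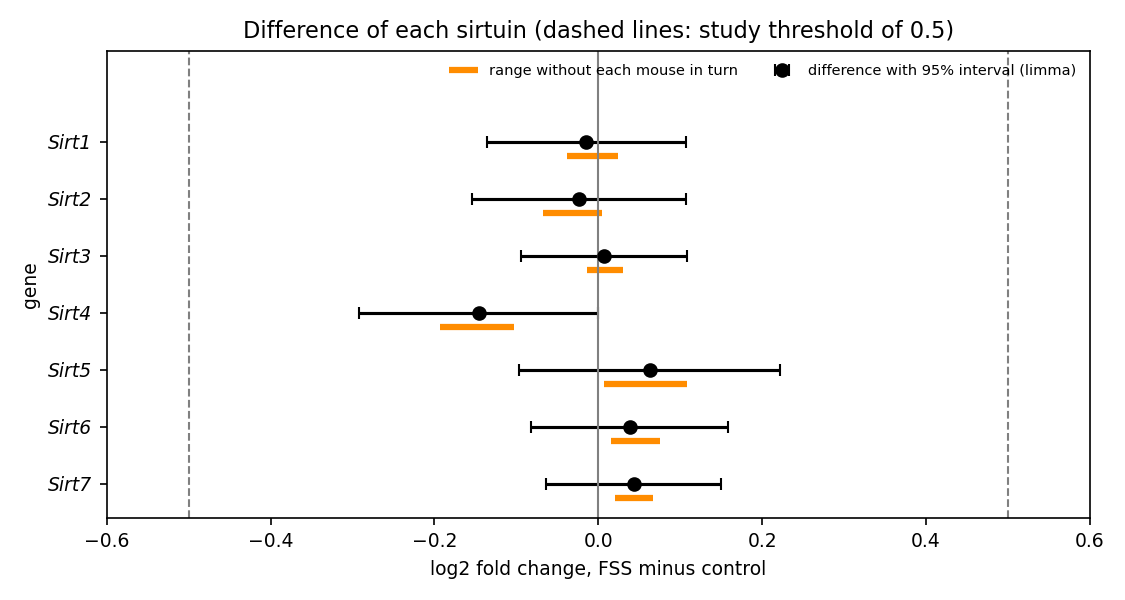
Difference of FSS minus control mice on the log2 scale (x axis) for each sirtuin (y axis), with the 95% interval from limma in black and the range of the difference without each mouse in turn in orange. All intervals lie inside the dashed lines at -0.5 and 0.5, and that of Sirt4, from -0.29, ends at 0.

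The 7 genes did not vary together as 1 block. FSS mouse 1 had the highest level of Sirt2, Sirt6 and Sirt7, control mouse 2 of Sirt3 and Sirt4, and FSS mouse 2 the lowest level of Sirt1 and Sirt2 but the highest of Sirt5. Over the 6 mice, the highest Pearson's r among the 21 pairs of sirtuins was that of Sirt6 and Sirt7 (r = 0.92, exact permutation p = 0.00417, adjusted over the pairs 0.0875, Spearman's rho = 0.94, exact permutation p = 0.0167, adjusted 0.35). It was 0.92 without FSS mouse 1 and control mouse 1, the 2 mice farthest from the median of Sirt6. The lowest was that of Sirt1 and Sirt5 (r = -0.89, exact permutation p = 0.0208, adjusted 0.219, rho = -0.83, exact permutation p = 0.0583, adjusted 0.54), which was -0.38 without FSS mouse 2 and control mouse 3 and so rests on these mice. No pair passed an adjusted p of 0.05. The values share the same 6 arrays, and arrays also differed in the spread of their values. The SD over all rows was 2.22 to 2.23 for control mice 1 and 2 and FSS mouse 2, and 2.26 to 2.27 for the other 3 arrays. Within the narrower and the wider arrays, the Sirt4 difference was -0.072 and -0.15, that of Sirt5 0.14 and 0.079, that of Sirt1 -0.070 and -0.018, and that of Sirt7 0.0046 and 0.051. For Sirt2, Sirt3 and Sirt6 the sign differed between these sets of arrays. FSS mouse 2 is the only FSS mouse of the narrower set and control mouse 3 the only control mouse of the wider set. Each of these differences therefore rests on a single mouse in 1 group.

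The genes most like Sirt1 over the 6 mice were Zfp354a (Pearson's r = 0.995), Dcaf6 (r = 0.990) and Zfp536 (r = 0.988), and those most like Sirt2 were Zcchc18 (r = 0.998), Gpr19 (r = 0.990) and Plpp4 (r = 0.987). They were picked from 14552 genes above the receptor level. With only 6 mice, 232 of these genes had an r over 0.9 with Sirt1 and 188 with Sirt2.

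Genes that supply or use NAD+, control Sirt1 or are acted on by sirtuins were then compared in the same fit, with the PGC-1 axis and the zinc-dependent histone deacetylases beside them. Of the 97 genes measured in these 7 lists, 1 was higher and 1 was lower at an unadjusted p under 0.05. This is 2.06%, beside 5.14% of all rows, and these shares were not tested against each other. The median difference of the 97 genes was 0.012, the largest in size was 0.21, and the 95% interval lay between -0.5 and 0.5 for all 97. All FSS mice lay above all control mice for 4 of the 97 (Slc25a51, Hic1, Foxo1 and Ndufa9), beside 6.02% of all rows. They lay below for 3 (Ccar2, Idh2 and Ppara), beside 4.25% of all rows.

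None of 19 genes of NAD+ synthesis and salvage passed (median 0.018, 15 of 19 above the receptor level). Nampt, the rate-limiting enzyme of NAD+ salvage from nicotinamide, was at 9.74, 9.81 and 9.85 in control mice and 9.86, 9.81 and 9.81 in FSS mice, with a difference of 0.028 (95% interval -0.081 to 0.14). These levels overlapped. The next enzyme of the route in neurons, Nmnat2, had a difference of 0.040. The largest fall in value was that of Ido1 (-0.21, limma adjusted p = 0.943) and the largest rise that of Kynu (0.15, limma adjusted p = 0.971), both enzymes of tryptophan breakdown that lay below the 95th percentile of the receptor rows. Nampt and Nmnat2 were named after their values were seen, because they are the central enzymes of the route.

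Of 17 other enzymes that use NAD+ or methylate nicotinamide, none passed either (median 0.013). Parp1, the main poly(ADP-ribose) polymerase, differed by 0.0060. Parp16, a family member of the endoplasmic reticulum, had the largest rise in value, at 6.89, 6.99 and 6.81 in control mice and 7.13, 7.05 and 6.98 in FSS mice (difference 0.15, limma adjusted p = 0.943), and 1 FSS mouse lay within the control range. The largest fall in value was that of Parp3 (-0.10). Parp1 was also chosen after its values were seen.

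Of 9 regulators of Sirt1, 1 was higher and none was lower (median 0.018). Hic1, which encodes a transcriptional repressor of Sirt1, was at 6.83, 6.91 and 6.81 in control mice and 7.02, 7.10 and 6.92 in FSS mice. The groups did not overlap, with only a narrow gap between FSS mouse 3 and control mouse 2, at 6.92 and 6.91. The difference was 0.16 (95% interval 0.019 to 0.31, limma adjusted p = 0.943). It did not pass the unadjusted threshold without control mouse 1 (0.15), control mouse 3 (0.14), FSS mouse 1 (0.16) or FSS mouse 2 (0.12). Ccar2, an inhibitor of the Sirt1 protein, also showed no overlap, at 9.50, 9.54 and 9.51 in control mice and 9.49, 9.47 and 9.46 in FSS mice, with a difference of -0.045 that did not pass (limma adjusted p = 0.968). Sirt1 itself did not pass, and its groups overlapped.

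None of 16 substrates of nuclear and cytosolic sirtuins passed (median 0.0025). Of the FoxO transcription factors, Foxo3 had the largest fall in value (-0.11, limma adjusted p = 0.943) and Foxo1 the largest rise (0.085, limma adjusted p = 0.943), with all FSS mice above all control mice for Foxo1 and an overlap for Foxo3. Ppargc1a, which encodes PGC-1α, had a difference of -0.040. None of the 11 genes of the PGC-1 axis of mitochondrial biogenesis passed (median 0.0058), with Ppara lowest (-0.074) and Esrrg highest (0.064).

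Among 15 substrates of mitochondrial sirtuins, 1 was lower and none was higher (median 0.017). Idh2, the mitochondrial NADP+-dependent isocitrate dehydrogenase and a substrate of Sirt3, was at 9.47, 9.59 and 9.43 in control mice and 9.35, 9.26 and 9.35 in FSS mice, so that the groups did not overlap. The difference was -0.17 (95% interval -0.31 to -0.032, limma adjusted p = 0.943). Without control mouse 2 it was -0.12 and without FSS mouse 2 it was -0.14, and neither passed the unadjusted threshold. Glud1, the target of Sirt4, had a difference of 0.017 (limma adjusted p = 0.989) and was named after its value was seen. The zinc-dependent histone deacetylases, a family that shares the reaction but not the NAD+ requirement, also had no member that passed among 11, with a median of 0.014 and a range from -0.054 for Hdac9 to 0.12 for Hdac2.

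**Figure D4:**
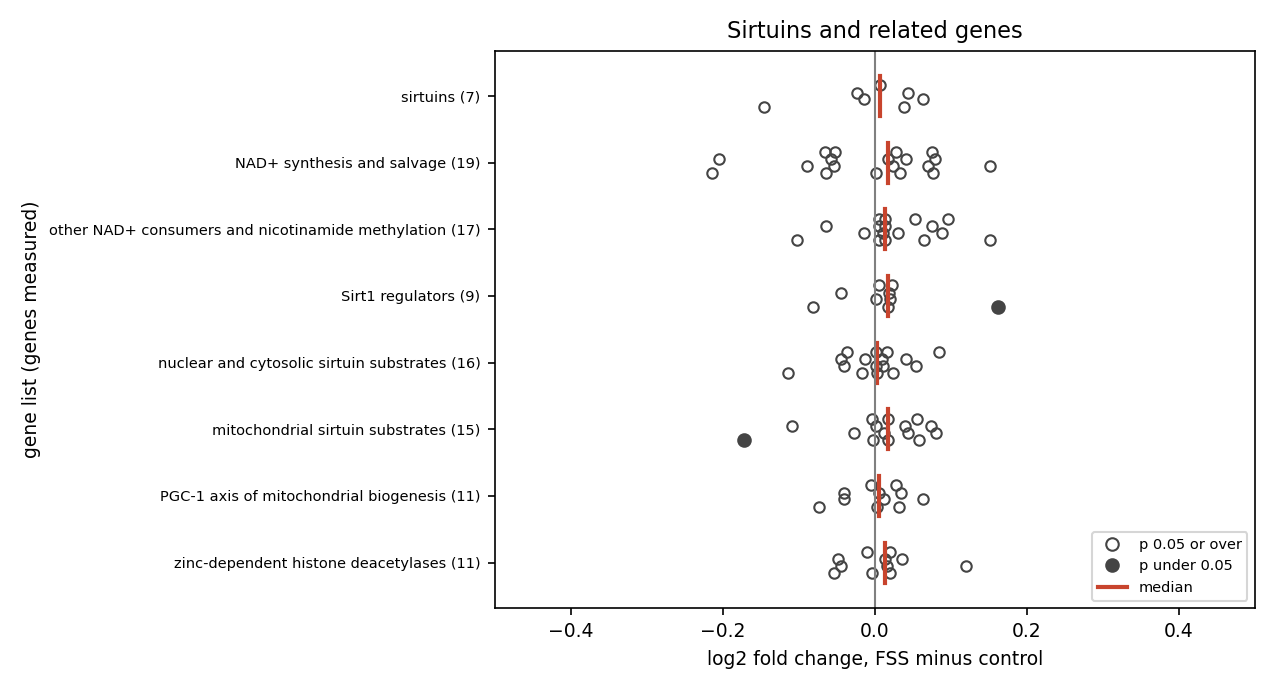
Difference of FSS minus control mice on the log2 scale (x axis) for the sirtuins and for 7 lists of related genes (y axis, with the number of genes measured). Circles stand for genes, and those that passed an unadjusted p of 0.05 are filled (Hic1 at 0.16 and Idh2 at -0.17), and red lines are medians, which run from 0.0025 to 0.018.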

How the data were processed

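The deposited values are log2 levels to which the authors had applied RMA, which subtracts background, quantile-normalizes the arrays and summarises probes per transcript cluster. The submitters' processing notes name Affymetrix Expression Console and RMA. The genome build is not given in the sources used here, so no coordinates were used. Scanner files and the other experiments of the study were not analysed here. Of 28944 rows, 21789 carry 1 gene symbol by the array's annotation, 1621 carry several and 5534 are unnamed here. Gene IDs of 21698 rows matched RefSeq (GRCm38.p6) and changed 0 symbols. Where a symbol had several rows, the row with the highest mean was used.

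FSS minus control was fitted over the 21789 rows with limma 3.58.1 (lmFit, eBayes) in R 4.3.3, with no covariate, and p was adjusted over all rows by Benjamini-Hochberg. The methods tie no test to the array comparison and name Student's test for unpaired data of equal variance in general, which was run as an alternative. The exact permutation test of 3 against 3 mice cannot go below 0.1. Intervals are limma's 95% intervals. The number of arrays limits the precision. Each array is of 1 mouse. The members and lists were chosen with earlier results of these data known, and 5 listed genes were not analysed here. Named genes were all sirtuins, list members with an unadjusted p under 0.05, otherwise the largest rise and fall of a list, and the 3 genes most like Sirt1 and Sirt2. Outside these rules, Slc25a51, Ccar2 and Ndufa9 were named for groups that did not overlap, and so by their values. Ppargc1a, Nampt, Nmnat2, Parp1 and Glud1 also lie outside these rules. The fit was tested on simulated data. Alternatives were other variance models, array weights, normalizations, a filter on dim rows, all rows, the row with the lowest mean, replicate and array-spread blocks, other thresholds and leaving out each mouse.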

Additional observations from a re-analysis of the deposited data

How the results depend on the processing

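The count of sirtuins lower at an unadjusted p under 0.05 was 0 and became 1, Sirt4 each time, with trend and robust priors (difference -0.15), array weights (-0.16), median centring (-0.14), the replicate number as a block (replicate block, -0.15) and without dim rows (-0.15). In the same order, 5.62%, 6.64%, 5.02%, 6.86% and 6.59% of all rows tested passed this threshold, beside 5.14% in the fit above. The last of these shares is over 10894 rows. Leaving out each mouse gave a count of 0 to 1 and a Sirt4 difference from -0.19 to -0.10. With the array spread as a block Sirt4 was -0.11 and did not pass, nor did it with the methods' Student test. No sirtuin was higher in any alternative, and none passed the study's thresholds or an adjusted p of 0.05. Signs near 0 turned: Sirt1 was 0.0049 with array weights, and without each mouse Sirt1 ran from -0.038 to 0.024, Sirt2 from -0.068 to 0.0044 and Sirt3 from -0.014 to 0.030. Sirt3 was -0.0054 with quantile normalization. The cause was not tested. Hic1 passed in 10 of the 15 alternatives that keep it, not with the Student test, and Idh2 in 13 of 16, not with the replicate block. Of the other counts and medians of the related lists, 30 moved and 306 did not. The latter include medians under alternatives that cannot change them, such as other variance models and the replicate block. Between mice of the same replicate number, deviations from the group means correlated at -0.048, 0.14 and 0.24. Control mouse 1 correlated best with FSS mouse 2 (0.13), whereas control mice 2 and 3 correlated best with the FSS mouse of their own number. These values cannot settle whether the numbers pair the mice. The replicate block moved the share of all rows past the unadjusted threshold from 5.14% to 6.86%. The row with the lowest mean changed no sirtuin, since each has 1 row. Over all rows, the unadjusted threshold was passed by 3.71% (without FSS mouse 1) to 7.6% (without FSS mouse 2).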
